A study of Homo sapiens with 5 samples.

Results

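The 50 genes described here act in G2 phase and in mitosis. They were chosen by name, from a list of mitosis and G2/M symbols, though with earlier results of these data known. All 50 were among the 27933 gene symbols of the deposited expression table. RNA of HaCaT cells, an immortalised human keratinocyte line, had been sequenced in 5 libraries: 2 with the genotype control and 3 with the genotype AHNAK knockdown. Cells of both groups grew in DMEM with fetal bovine serum and antibiotics, and total RNA was taken with Trizol. The sample labels speak of a knockdown and the design text of a knockout, and neither names the agent, its dose or the time after treatment. Nothing states that replicates came from separate cultures, so p-values cover only the spread among these samples, possibly a technical one. The series title asks what AHNAK, a very large scaffold protein, does for keratinocyte proliferation, and the genes of cell division are 1 readout of that question.

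In a dividing cell, cyclin B with its kinase CDK1 drives entry into mitosis, and the Polo and Aurora kinases build the spindle. The spindle checkpoint holds back the anaphase-promoting complex until every chromosome is attached, after which separase is freed to cut cohesin and the chromatids part. Most of these genes are silenced in resting and G1 cells by the DREAM complex and are switched on in G2 by its MuvB core together with B-MYB (MYBL2) and FOXM1, through a short promoter element called the cell cycle genes homology region. In epidermis they are active in the basal layer and shut off as keratinocytes leave the cycle to differentiate, and Ki-67 staining is a standard count of proliferating keratinocytes.

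Promoters of the members were searched for this element because it is known for its part in their regulation. RefSeq promoter windows (GRCh38.p14, from 250 bases before to 50 after a start, 300 bases each) were matched by symbol for 42 members, 7 of which had several windows. AURKA, BIRC5, BUB3, FOXM1, RACGAP1, TPX2, TTK and UBE2C had no entry. The homology region was read as TTTGAA or TTTAAA and the CCAAT box as CCAAT, both on either strand. At least 1 window held the homology region in 35 of the 42 members (83.3%), against 27.9% of the 27305 genes in the promoter table. CCNA2, MYBL2, AURKB, NEK2, BUB1, CENPK and CKAP2 had no match, which says only that these letters were not in the windows. A CCAAT box was found in 32 of the 42 (76.2%), against 39.7% of all genes. Both motifs were in the same window in 29 of 53 member windows (54.7%), against 9.27% of 35116 windows of the same length. A match is a description of the letters and was not tested as a binding site. The 7 stretches below are the 200 bases before the RefSeq start of well-known members that held the homology region there, 5′ to 3′ on the gene's strand, with every match to either motif in capitals (TTCAAA and ATTGG are the reverse-strand readings).
MKI67 (chr10:128126424-128126623, minus strand): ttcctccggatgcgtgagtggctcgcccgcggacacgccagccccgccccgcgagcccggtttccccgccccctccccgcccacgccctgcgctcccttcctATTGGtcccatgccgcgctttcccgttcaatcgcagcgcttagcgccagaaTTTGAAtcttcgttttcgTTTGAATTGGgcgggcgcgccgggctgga
TOP2A (chr17:40417897-40418096, minus strand): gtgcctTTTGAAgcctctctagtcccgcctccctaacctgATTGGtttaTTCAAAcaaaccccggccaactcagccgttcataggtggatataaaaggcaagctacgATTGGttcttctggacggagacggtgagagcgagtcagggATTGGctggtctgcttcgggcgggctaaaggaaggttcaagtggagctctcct
CCNB1 (chr5:69166950-69167149, plus strand): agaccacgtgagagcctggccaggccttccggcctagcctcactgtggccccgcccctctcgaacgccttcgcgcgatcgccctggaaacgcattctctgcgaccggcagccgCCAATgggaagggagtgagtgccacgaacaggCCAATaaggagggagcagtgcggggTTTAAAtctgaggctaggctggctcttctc
CDK1 (chr10:60778278-60778477, plus strand): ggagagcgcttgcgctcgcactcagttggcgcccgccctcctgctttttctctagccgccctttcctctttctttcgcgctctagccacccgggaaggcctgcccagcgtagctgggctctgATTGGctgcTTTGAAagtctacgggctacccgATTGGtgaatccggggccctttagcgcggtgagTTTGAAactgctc
PLK1 (chr16:23678689-23678888, plus strand): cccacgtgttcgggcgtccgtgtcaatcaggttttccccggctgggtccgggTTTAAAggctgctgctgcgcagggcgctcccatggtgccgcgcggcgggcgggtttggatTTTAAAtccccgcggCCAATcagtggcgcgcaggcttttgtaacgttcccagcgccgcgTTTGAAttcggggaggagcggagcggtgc
CDC20 (chr1:43358781-43358980, plus strand): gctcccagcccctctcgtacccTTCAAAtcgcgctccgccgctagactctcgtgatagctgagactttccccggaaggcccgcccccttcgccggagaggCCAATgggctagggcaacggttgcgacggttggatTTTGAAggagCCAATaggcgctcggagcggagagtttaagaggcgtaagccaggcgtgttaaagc
PTTG1 (chr5:160421655-160421854, plus strand): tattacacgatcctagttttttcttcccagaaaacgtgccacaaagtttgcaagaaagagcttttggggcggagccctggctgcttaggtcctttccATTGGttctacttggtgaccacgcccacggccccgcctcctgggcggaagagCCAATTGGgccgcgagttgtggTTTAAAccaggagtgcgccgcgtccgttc
In CCNB1 and PTTG1 a TTTAAA began 30 and 29 bases before the start, and in PLK1 a TTTGAA began 29 bases before it, each downstream of a CCAAT box. In CDC20 the TTTGAA began 65 bases before the start, between CCAAT boxes that began at 100 and 55. In MKI67 the homology region at 29 shared 1 base with a reverse CCAAT box, and in PTTG1 a forward and a reverse CCAAT box shared 2 bases.

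Values are FPKM, fragments scaled to transcript length and library size, which carry no read totals, so the depth of each library is unknown. FPKM sums ranged from 374214.8 to 420540.9, and 12087 to 12311 genes per library reached 1 FPKM. Low values shared a common step between control replicate 1 and knockdown replicates 1 and 3 (set A) and between control replicate 2 and knockdown replicate 2 (set B), which no label describes, so differences were also taken within each set. Over 11768 tested genes, the deviation of a library from the mean of the 5 libraries had a Spearman's rho with transcript GC content of 0.61 in knockdown replicate 1 and -0.55 in knockdown replicate 3, and of 0.0022 to 0.19 in the other 3 libraries. All 10 keratinocyte markers were above 1 FPKM in every library, with sums of 6501 to 7969 FPKM in controls and 4486 to 6117 FPKM in knockdown. KRT5, PKP1 and CDH1 of that list overlapped between groups. Under 1 FPKM in every library were 4 of 7 fibroblast, 3 of 4 endothelial, 4 of 5 leukocyte and 4 of 5 melanocyte markers, with TYR at 0 throughout. Summed fibroblast markers were 3.30 to 5.02 FPKM in controls and 6.12 to 10.2 FPKM in knockdown, highest in knockdown replicate 2, mostly through DCN (1.37 and 0 FPKM in the controls and 1.83, 5.25 and 2.25 FPKM in the knockdown libraries). COL1A1 of the same list went the other way, with 1.94 and 2.47 FPKM in the controls and 1.78, 1.28 and 1.59 FPKM in the knockdown libraries. For endothelial, leukocyte and melanocyte markers the sums overlapped between groups, and the part of any of these lists in the results was not tested. AHNAK itself stood at 205 and 242 FPKM in controls 1 and 2, against 114, 69.6 and 115 FPKM in knockdown replicates 1, 2 and 3, a log2 difference of -1.19 (SE 0.24) that did not pass over all genes (limma adjusted p = 0.372). With limma array weights it was -1.55 and passed (adjusted p = 0.034). The lowest AHNAK level was in knockdown replicate 2.

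HaCaT cells of both groups expressed the whole mitotic set. Every member was present in every library, from 7.13 to 208 FPKM, and 47 of the 50 were above 10 FPKM in all 5. The share of all genes above that level was not counted. CDC20, the activator of the anaphase-promoting complex, stood highest, at 208 and 205 FPKM in controls 1 and 2, against 192, 145 and 152 FPKM in knockdown replicates 1, 2 and 3. CCNB1 (cyclin B1) and UBE2C, the ubiquitin-conjugating enzyme of that complex, came next, with means over the 5 libraries of 111 and 102 FPKM; their levels overlapped across libraries, while every CDC20 value was above every CCNB1 value. At the other end were CDC25C, a phosphatase that activates CDK1, the motor CENPE and the motor KIF20B, with means of 8.07, 8.96 and 10.8 FPKM. The plot of 14 well-known members shows these levels library by library.

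**Figure D1:**
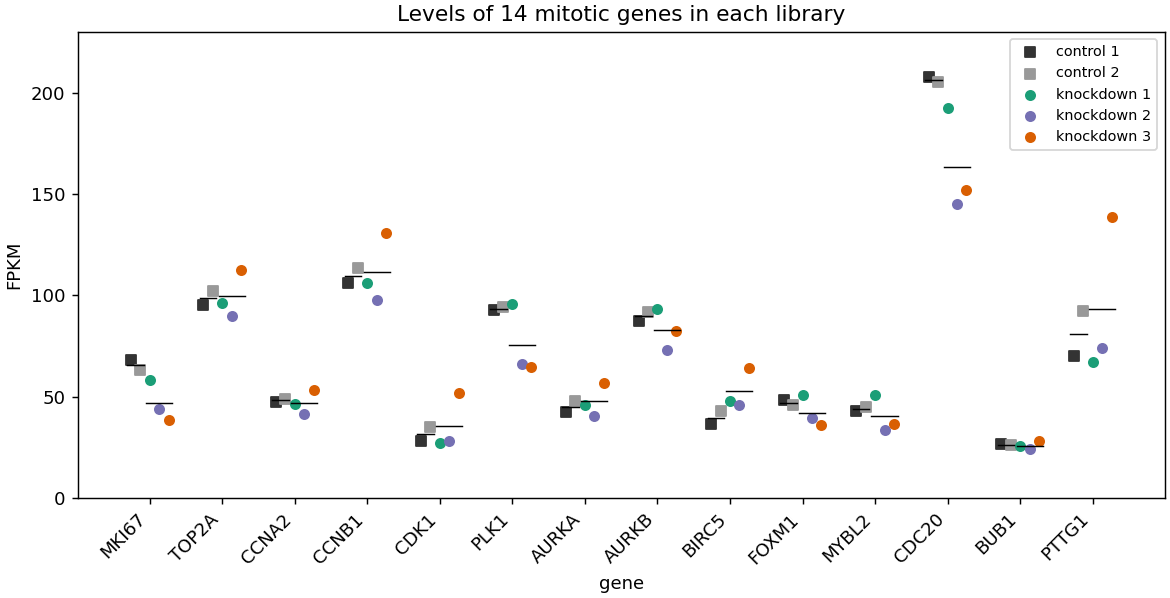
FPKM (vertical axis, linear from 0) of 14 mitotic genes in each of the 5 libraries; squares are controls, circles knockdown, and short lines the group means. CDC20 is highest in all 5 libraries, and knockdown replicate 3 (orange) is highest for PTTG1 and CDK1 and lowest for PLK1 and MKI67.

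No member passed the test between knockdown and control. Of the 50 members, all of which entered the test, 0 passed in limma at an adjusted p under 0.05 (smallest 0.406), and 0% of all 12196 tested genes did. At an unadjusted p under 0.05 there were 2 members, MKI67 and ANLN, both lower (4%), against 11.7% of all genes in either direction, 5.48% lower and 6.22% higher. With limma array weights, which put most weight on knockdown replicate 2 (3.98) and least on knockdown replicate 3 (0.257), 3 members passed at an adjusted p under 0.05, MKI67, CDC20 and ANLN (6%, against 11.7% of all genes). The log2 difference (knockdown less control, with values taken as log2(FPKM + 0.5)) was below 0 in 30 members (60%), against 48.7% of all genes. Its median was -0.03 over the members and 0.01 over all genes. Between members it ran from -0.51 (MKI67) to 0.39 (BIRC5), and 45 of the 50 lay within 0.3 of 0. Standard errors ran from 0.12 to 0.32, and 48 of the 50 95% confidence intervals held 0. With libraries scaled to the same FPKM sum, 37 members were below 0 and their median was -0.08. Such a scaling shifts all genes of a library alike, and the share of all genes below 0 was not counted for it. In bulk RNA, fewer cells in G2 or mitosis and less transcript per such cell cannot be told apart.

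Groups did not overlap for 6 members (12%), against 32% of all genes. Lower in every knockdown library than in both controls were 5 of them (10%, against 15.8% of all genes): MKI67, CDC20, ANLN, ASPM and CENPE. The 1 higher in every knockdown library (2%, against 16.2%) was BIRC5. Both shares are below those over all genes.

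Among the regulators of entry, CDK1 (ENSG00000170312.15, chromosome 10) and CCNB2 had the wider ranges, and the groups overlapped in CDK1 and its cyclins. CDK1 was at 27.8 and 35 FPKM in controls 1 and 2, against 26.9, 27.9 and 51.5 FPKM in knockdown replicates 1, 2 and 3. Knockdown replicate 3 was above both controls and the other knockdown libraries were close to control replicate 1, so the groups overlapped, and its log2 difference was 0.11 (SE 0.29; 95% confidence interval -0.59 to 0.82). CCNB1 read 106 and 114 FPKM in the controls and 106, 97.8 and 131 FPKM in the knockdown libraries, a log2 difference of 0.01 (95% confidence interval -0.37 to 0.40) whose sign turned when libraries were scaled to the same sum or by quantiles. CCNA2, cyclin A2 of S and G2 phase, read 47.5 and 48.9 FPKM in the controls and 46.4, 41.1 and 53.2 FPKM in the knockdown libraries. CCNB2, the gene of cyclin B2, read 63.7 and 76.2 FPKM in the controls and 74.8, 66.9 and 99.7 FPKM in the knockdown libraries. All of these cyclins were highest in knockdown replicate 3. The phosphatases that activate CDK1 differed from each other. CDC25C read 7.52 and 8.31 FPKM in the controls and 7.97, 7.13 and 9.43 FPKM in the knockdown libraries, highest in knockdown replicate 3. CDC25B read 74.3 and 84.4 FPKM in the controls and 82.9, 56.4 and 61.5 FPKM in the knockdown libraries, low in both knockdown replicates 2 and 3.

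The transcription factors of the programme, FOXM1 and MYBL2, were likewise low in knockdown replicates 2 and 3. FOXM1 was at 48.1 and 45.8 FPKM in controls 1 and 2, against 50.8, 39.4 and 35.9 FPKM in knockdown replicates 1, 2 and 3, with knockdown replicate 1 above both controls and the other 2 below them. MYBL2 was at 43.1 and 44.6 FPKM in controls 1 and 2, against 50.6, 33.7 and 36.2 FPKM in knockdown replicates 1, 2 and 3, again highest in knockdown replicate 1. Their log2 differences were -0.17 (SE 0.17) and -0.15 (SE 0.19), with limma adjusted p of 0.707 and 0.778. The sizes rested on single libraries: FOXM1 was at -0.32 without knockdown replicate 1 and -0.068 without knockdown replicate 3. MYBL2 was at -0.32 without knockdown replicate 1, -0.033 without knockdown replicate 2 and -0.084 without knockdown replicate 3.

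Of the mitotic kinases, PLK1, the Polo kinase of spindle assembly, was at 92.6 and 94 FPKM in controls 1 and 2, against 95.7, 66.2 and 64.8 FPKM in knockdown replicates 1, 2 and 3. The controls were within 2 FPKM of each other, knockdown replicate 1 was slightly above them, and knockdown replicates 2 and 3 were well below, so the groups overlapped through 1 library (log2 difference -0.33, SE 0.19, limma adjusted p = 0.546; -0.51 without knockdown replicate 1). AURKB, the kinase of the chromosomal passenger complex, read 87.5 and 91.7 FPKM in the controls and 93, 73 and 82.4 FPKM in the knockdown libraries. AURKA, the centrosomal Aurora kinase, read 42.4 and 47.6 FPKM in the controls and 45.6, 40.5 and 56.5 FPKM in the knockdown libraries. AURKA was highest in knockdown replicate 3, and AURKB was lower there than in either control. NEK2, a kinase of centrosome separation, read 19.3 and 20.6 FPKM in the controls and 20.6, 18.8 and 24.8 FPKM in the knockdown libraries. BIRC5 (survivin), a passenger complex subunit and inhibitor of apoptosis, was the 1 member with a difference above 0.3, at 36.2 and 43 FPKM in controls 1 and 2, against 47.6, 45.9 and 64.2 FPKM in knockdown replicates 1, 2 and 3. Every knockdown library was above both controls, which averaged 39.6 ± 4.81 FPKM (SD, n = 2) against 52.6 ± 10.1 FPKM (SD, n = 3) with knockdown. Its log2 difference of 0.39 (SE 0.19) was 0.60 in set A against 0.09 in set B, and 0.24 when knockdown replicate 3 was left out. It did not pass (limma adjusted p = 0.471).

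Spindle checkpoint members held both steady and variable genes. BUB1 and BUB1B, the checkpoint kinase and its BubR1 relative, had among the smallest ranges of all members. BUB1 read 26.5 and 26 FPKM in the controls and 25.4, 23.8 and 28 FPKM in the knockdown libraries. BUB1B read 22.2 and 22.3 FPKM in the controls and 22.7, 18.6 and 20.1 FPKM in the knockdown libraries. BUB3, the partner of both, read 73.5 and 73.3 FPKM in the controls and 66.3, 73.6 and 89.5 FPKM in the knockdown libraries, so its highest value was in knockdown replicate 3 and its lowest in knockdown replicate 1. MAD2L1, the checkpoint effector that binds CDC20, was at 38.6 and 41.1 FPKM in controls 1 and 2, against 33.3, 37.4 and 59.4 FPKM in knockdown replicates 1, 2 and 3. TTK (MPS1), the apical checkpoint kinase, read 13.5 and 15 FPKM in the controls and 14.4, 13.8 and 19 FPKM in the knockdown libraries. Both were highest in knockdown replicate 3, and their log2 differences were 0.08 (SE 0.25) and 0.12 (SE 0.17).

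The anaphase genes split. Control libraries averaged 207 ± 1.80 FPKM (SD, n = 2) of CDC20 against 163 ± 25.6 FPKM (SD, n = 3) with knockdown, a log2 difference of -0.35 (SE 0.16, 95% confidence interval -0.73 to 0.03; limma adjusted p = 0.458). It was lower in 3 of 3 knockdown libraries, whose log2 differences from the control mean were -0.10, -0.51 and -0.44. PTTG1 (securin), which holds separase inactive, was at 69.8 and 92 FPKM in controls 1 and 2, against 66.9, 74 and 139 FPKM in knockdown replicates 1, 2 and 3, highest in knockdown replicate 3 and between the controls or below them in the other 2. ESPL1 (separase) had its lowest value in that library, with 18.2 and 16.8 FPKM in the controls and 19.9, 15.3 and 11.5 FPKM in the knockdown libraries. UBE2C read 94.3 and 105 FPKM in the controls and 101, 91.9 and 118 FPKM in the knockdown libraries. Reads of PTTG1 and AURKA could be divided with near-identical copies, which was not tested. PTTG2 and PTTG3P were listed at 0 in 4 libraries and at 0.16 and 0.13 FPKM in knockdown replicate 3, where PTTG1 was highest. AURKAPS1 was under 0.4 FPKM in all 5. KIF4B, the intronless copy of KIF4A, was under 0.2 FPKM throughout.

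Centromere and kinetochore members held the widest swing of the set. NUF2, a subunit of the NDC80 complex that grips microtubules, was at 18.8 and 22.5 FPKM in controls 1 and 2, against 15.7, 17.8 and 33.8 FPKM in knockdown replicates 1, 2 and 3, the largest range of any member (1.08 on the log2 scale). Its partner NDC80 read 17.3 and 21.1 FPKM in the controls and 17.8, 17.7 and 29 FPKM in the knockdown libraries. CENPA, the centromeric histone, read 19.2 and 23.2 FPKM in the controls and 19.6, 18.9 and 31.2 FPKM in the knockdown libraries. CENPK, of the inner kinetochore, read 13 and 15.1 FPKM in the controls and 11.9, 13.3 and 22.3 FPKM in the knockdown libraries. In all 4 genes knockdown replicate 3 was above both controls while knockdown replicate 2 was below control replicate 2. CENPE and CENPF, whose proteins link kinetochores to microtubules, were not highest in that library. CENPE read 9.99 and 9.74 FPKM in the controls and 7.84, 7.57 and 9.66 FPKM in the knockdown libraries, with a log2 difference of -0.23 (SE 0.15; limma adjusted p = 0.565). Its knockdown replicate 3 was only just below the lower control. CENPF read 29.2 and 30.9 FPKM in the controls and 30.7, 23.7 and 27.3 FPKM in the knockdown libraries, lowest in knockdown replicate 2.

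Among the 11 spindle motors and microtubule proteins, 10 were lowest in knockdown replicate 2 and 7 highest in knockdown replicate 3. Of all genes, 18.2% and 30% were. ASPM, which focuses spindle poles, was at 19.1 and 18.4 FPKM in controls 1 and 2, against 16.5, 14.9 and 17.3 FPKM in knockdown replicates 1, 2 and 3, lower in every knockdown library (log2 difference -0.21, SE 0.13; limma adjusted p = 0.558). HMMR, a spindle-assembly protein, read 23.5 and 29 FPKM in the controls and 22.2, 22 and 39.9 FPKM in the knockdown libraries. DLGAP5, which stabilises spindle microtubules, read 26.4 and 34 FPKM in the controls and 27.8, 25.1 and 44.8 FPKM in the knockdown libraries. Both were highest in knockdown replicate 3 and lowest in knockdown replicate 2. KIF2C, a motor that depolymerises microtubules at centromeres, had the smallest range of all 50, at 35.9 and 34.1 FPKM in the controls and 36.7, 33.6 and 33.7 FPKM in the knockdown libraries. The other 7 (KIF11, KIF20B, KIF4A, TPX2, NUSAP1, CKAP2 and CKAP2L) had log2 differences between -0.11 (TPX2, which activates AURKA on the spindle) and 0.20 (NUSAP1, a microtubule bundler).

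The central spindle and cytokinesis genes were the role with the lowest median. All 6 had a log2 difference below 0 (against 48.7% of all genes), with a median of -0.19. All 6 were lowest in knockdown replicate 2, against 18.2% of all genes. ANLN (anillin), the scaffold of the contractile ring, was at 88 and 82.2 FPKM in controls 1 and 2, against 69.1, 61.1 and 70.8 FPKM in knockdown replicates 1, 2 and 3. Controls averaged 85.1 ± 4.05 FPKM (SD, n = 2) against 67 ± 5.19 FPKM (SD, n = 3) with knockdown, without overlap, and the log2 difference was -0.35 (SE 0.13, set A -0.33, set B -0.43; limma adjusted p = 0.406). ECT2, the exchange factor that activates RhoA at the cleavage site, read 38.5 and 40.2 FPKM in the controls and 31.7, 29.2 and 41.1 FPKM in the knockdown libraries, above both controls in knockdown replicate 3. KIF20A, a motor of the central spindle, read 49.3 and 56.3 FPKM in the controls and 52.3, 36.7 and 45.5 FPKM in the knockdown libraries. The log2 differences of KIF23, RACGAP1 and PRC1, which bundle the central spindle, were -0.15, -0.07 and -0.07, against standard errors of 0.18, 0.17 and 0.14.

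MKI67 (Ki-67, ENSG00000148773.13, GRCh38 chromosome 10, 128096659 to 128126385, minus strand) had the largest difference of the set and was at 68.1 and 63 FPKM in controls 1 and 2, against 58.2, 43.7 and 38.2 FPKM in knockdown replicates 1, 2 and 3. Every knockdown library was below both controls, knockdown replicate 3 lowest. Controls averaged 65.5 ± 3.61 FPKM (SD, n = 2) against 46.7 ± 10.3 FPKM (SD, n = 3) with knockdown. Its log2 difference was -0.51 (SE 0.19, 95% confidence interval -0.97 to -0.04), -0.53 in set A against -0.52 in set B, without passing (limma adjusted p = 0.406). TOP2A, the topoisomerase that untangles chromosomes and another common proliferation marker, did not follow it. It read 95.2 and 102 FPKM in the controls and 96.4, 90.0 and 112 FPKM in the knockdown libraries, a log2 difference of 0.01 (95% confidence interval -0.34 to 0.35) that was below 0 under both other scalings. Of the condensin subunits, SMC4 read 75.8 and 80.5 FPKM in the controls and 70.7, 65.1 and 90.1 FPKM in the knockdown libraries. NCAPG read 13.5 and 14.3 FPKM in the controls and 13.4, 11.9 and 16 FPKM in the knockdown libraries, and NCAPD2 70.9 and 73.4 FPKM in the controls and 80.6, 65.7 and 65.5 FPKM in the knockdown libraries. SMC4 and NCAPG were highest in knockdown replicate 3 and NCAPD2 in knockdown replicate 1.

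**Figure D2:**
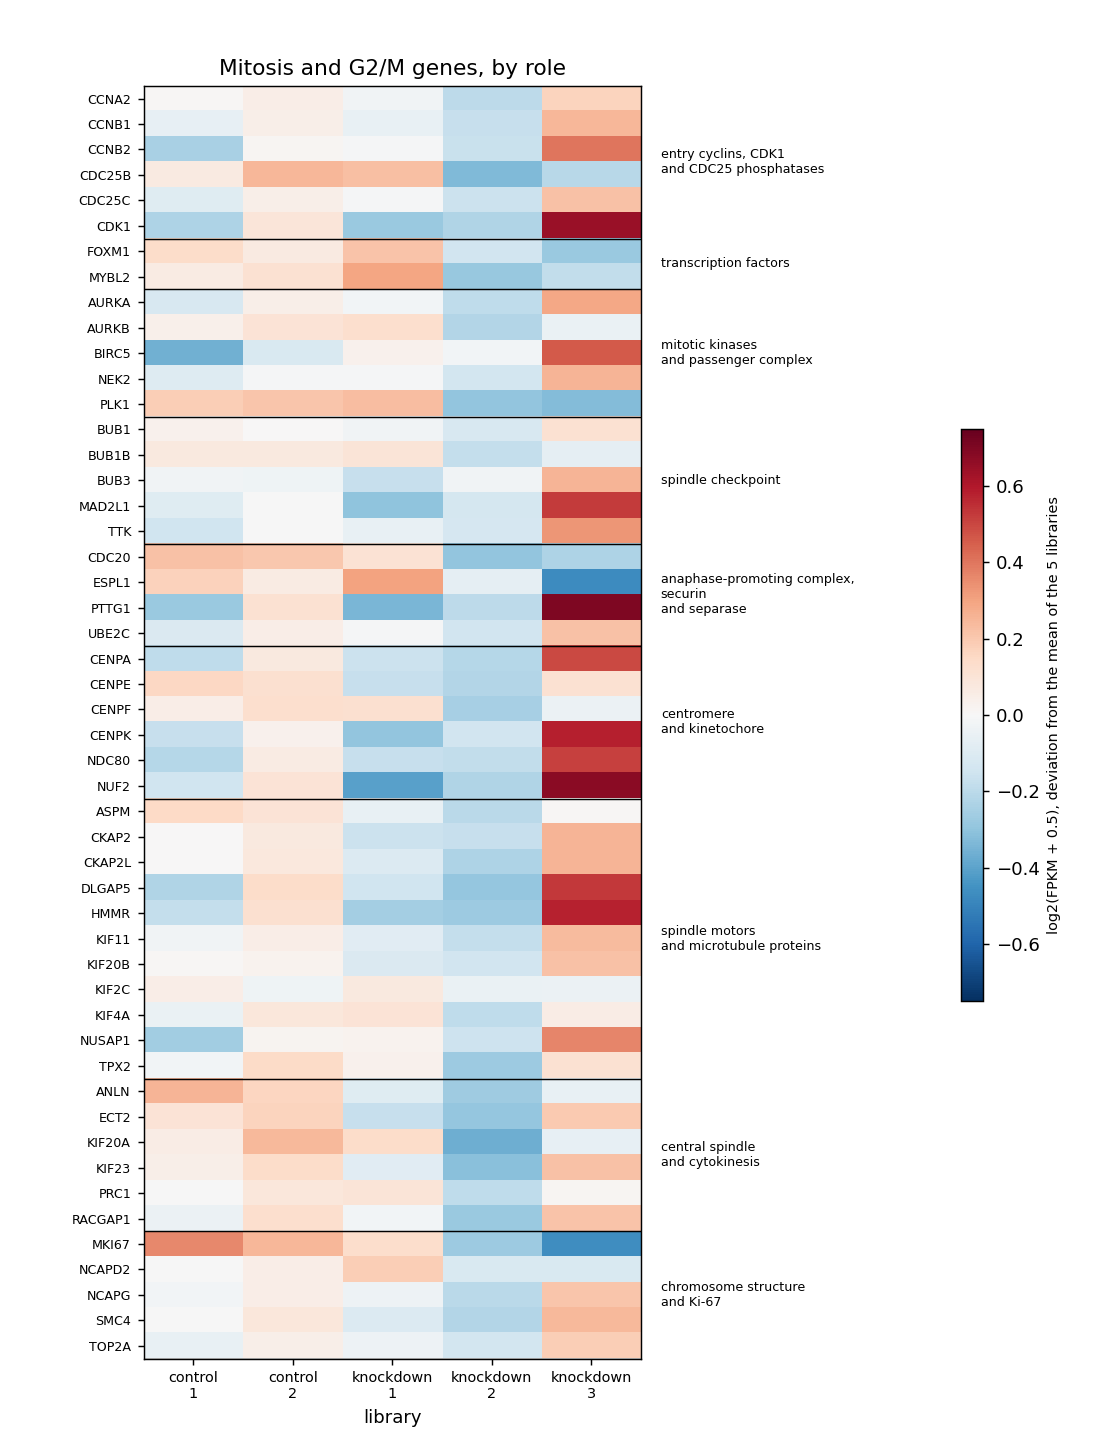
Deviation of log2(FPKM + 0.5) from the mean of the 5 libraries (colour) for the 50 genes (rows, by role) in each library (columns). Knockdown replicate 2 is pale to mid blue in every row, knockdown replicate 3 is red for PTTG1, NUF2 and CDK1 and blue for MKI67, ESPL1 and PLK1.

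Taken library by library, the set was low in 1 knockdown library, high in another and near the controls in the third. Median deviations of the 50 members from the mean of the 5 libraries were -0.01 and 0.07 on the log2 scale in control replicates 1 and 2, and -0.03, -0.19 and 0.22 in knockdown replicates 1, 2 and 3. Knockdown replicate 2 was the lowest of the 5 libraries for 34 members (68%), against 18.2% of all genes. Knockdown replicate 3 was the highest for 31 members (62%), against 30% of all genes, and the lowest for 5 (10%), against 28%. Both held together for 20 members (40%), against 4.66% of all genes. Both libraries carry the same knockdown label. Knockdown replicate 2 was below both controls in 41 members (82%, against 39.4% of all genes) and knockdown replicate 3 above both in 31 (62%, against 42.8%). Knockdown replicate 1 was below both controls in 22 (44%, against 35%) and above both in 12 (24%, against 33.3%).

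In the 6 pairs of a knockdown and a control library, knockdown replicate 2 was lower for 41 members than control replicate 1 (82%, against 49.3% of all genes) and for 48 than control replicate 2 (96%, against 49.9%). The 2 exceptions in the latter pair were BIRC5 and BUB3. Knockdown replicate 1 was lower for 22 (44%, against 51.3%) and 38 (76%, against 50.4%), and knockdown replicate 3 for 16 (32%, against 50.5%) and 19 (38%, against 46.7%). Median differences over the members were -0.15 and -0.26 for knockdown replicate 2, 0.02 and -0.10 for knockdown replicate 1, and 0.23 and 0.15 for knockdown replicate 3, in the same order of controls. Members of 1 library share that library, so these counts describe pairs of libraries, with no test.

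**Figure D3:**
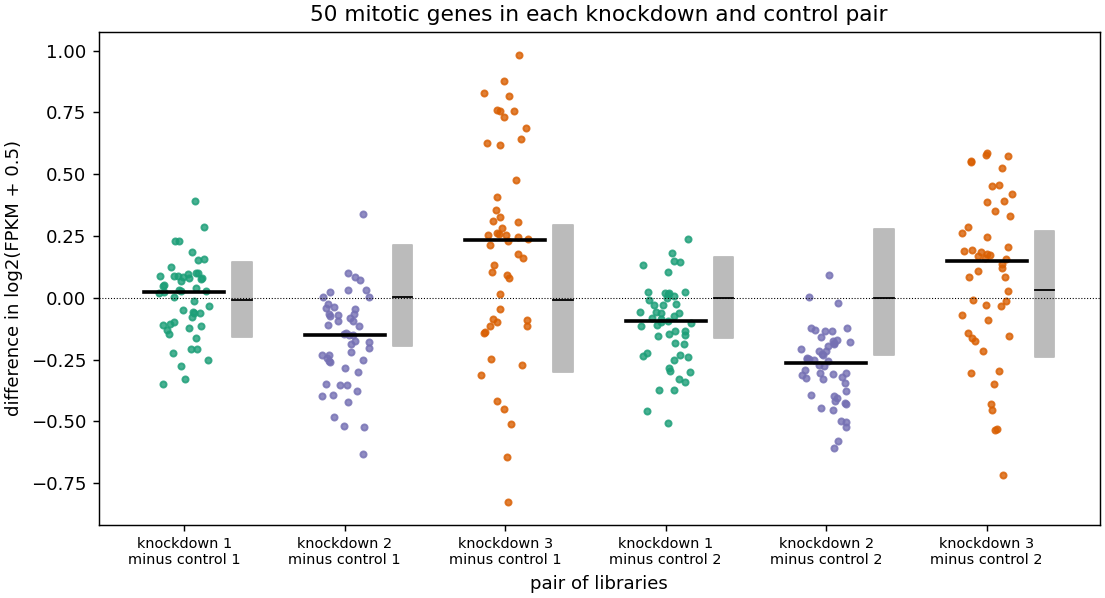
Difference in log2(FPKM + 0.5) of each of the 50 members (points) in each of the 6 knockdown and control pairs; thick lines are member medians, and grey bars with a line give the quartiles and median of all 12196 tested genes. Knockdown replicate 2 lies mostly below 0 against either control, and knockdown replicate 3 has the widest spread, with medians of 0.23 and 0.15.

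Within set A, 15 members were lower in knockdown (30%, against 51.4% of all genes; median 0.07), and within set B, which holds 1 library per group, 48 were lower (96%, against 49.9%; median -0.26). A sign above 0 in set A and below 0 in set B was seen in 33 members (66%), against 21.4% of all genes. MKI67, CDC20, ANLN, ASPM, CENPE, FOXM1 and PLK1 were among the members lower in both sets, and BIRC5 and BUB3 were higher in both. The count of members below 0 rested on single libraries: without knockdown replicate 2 it was 16 of 50 (32%, against 49.2% of all genes; median 0.04). Without knockdown replicate 3 it was 45 of 50 (90%, against 50.7%; median -0.14).

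Base composition moved with the position of a member in knockdown replicates 1 and 3, as it did over all genes. Members were AT-rich, with a median transcript GC content of 42.6% against 48.5% over all tested genes. Across the 50 members, deviation and GC content had a Spearman's rho of 0.78 in knockdown replicate 1 and -0.54 in knockdown replicate 3, against 0.23, 0.12 and -0.04 in control replicates 1 and 2 and knockdown replicate 2; the points of each value share a library. Transcript length had rho of 0.53 in control replicate 1 and -0.41 in knockdown replicate 3. In knockdown replicate 3, 9 of the 12 members with a GC content above 48.5% were below the control mean, among them PLK1, CDC20, FOXM1, MYBL2, ESPL1 and CDC25B, while 30 of the 38 other members were above it. In knockdown replicate 1 the order was the opposite, with 10 of the 12 above the control mean and 28 of the 38 below. Knockdown replicate 2 was below the control mean for 11 of the 12 and 37 of the 38, with medians of -0.22 and -0.21. These counts were not taken over all genes of like GC content. Over all 11768 genes rho was 0.61 in knockdown replicate 1 and -0.55 in knockdown replicate 3, so the split there is not particular to the members. PTTG1, BIRC5 and UBE2C were the 3 GC-rich members that were above the control mean in knockdown replicate 3.

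**Figure D4:**
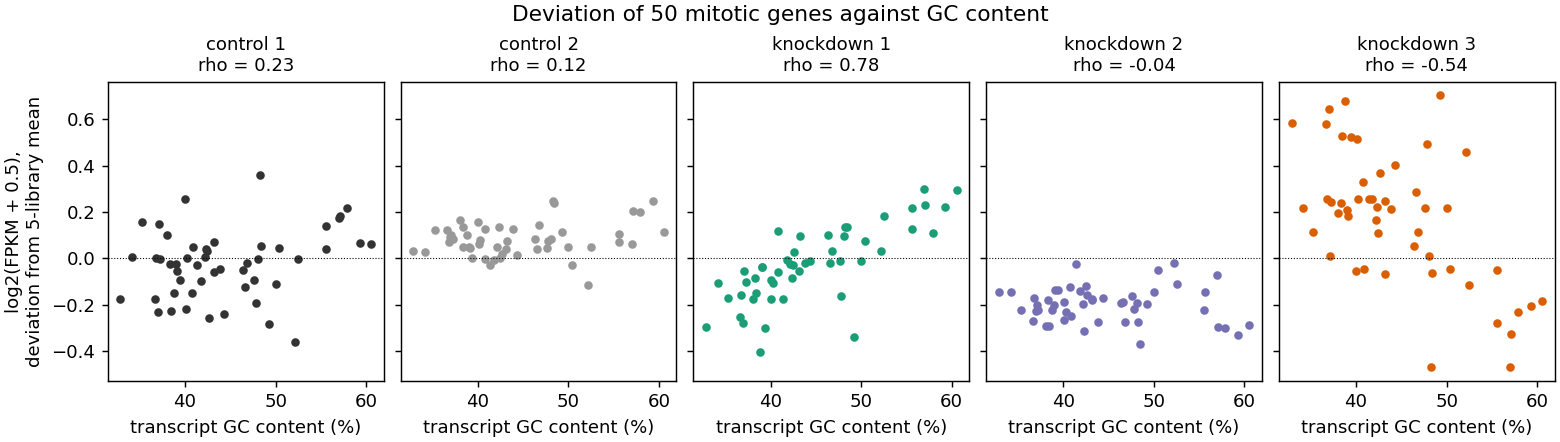
Deviation of log2(FPKM + 0.5) from the 5-library mean (vertical axis) against GC content of the longest annotated transcript in percent (horizontal axis) for the 50 members, 1 panel per library with Spearman's rho. Points climb with GC content in knockdown replicate 1 (0.78), descend in knockdown replicate 3 (-0.54) and lie flat below 0 in knockdown replicate 2 (-0.04).

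When each library was corrected for GC content and transcript length by loess, the members' median in knockdown replicate 3 came close to the controls and that in knockdown replicate 2 stayed low. The correction took the GC trend out over all genes (rho between -0.01 and 0.03) but not out of the members, whose rho was still 0.52 in knockdown replicate 1 and -0.25 in knockdown replicate 3. Median deviations of the members were then 0.01 and 0.10 in control replicates 1 and 2, and 0.05, -0.20 and 0.04 in knockdown replicates 1, 2 and 3. Members below 0 then numbered 43 of 50 (86%), against 52.3% of all genes, with a median of -0.09 against -0.01. In set B 49 were lower (98%, against 53.8%; median -0.31), and in set A 21 (42%, against 51.7%; median 0.04). In the 6 pairs of corrected libraries, knockdown replicate 2 was lower than control replicates 1 and 2 for 47 (94%, against 52.7%) and 49 members (98%, against 53.8%). Knockdown replicate 1 was lower for 19 (38%, against 50.7%) and 37 (74%, against 52%), and knockdown replicate 3 for 23 (46%, against 51.9%) and 33 (66%, against 52.1%). At an unadjusted p under 0.05 there were 5 members, all lower (10%, against 18.3% of all genes in either direction and 9.58% lower): CDC20 (-0.35), ANLN (-0.39), ECT2 (-0.29), CENPE (-0.27) and MKI67 (-0.44). None of the 50 passed at an adjusted p under 0.05 in limma (0% of all genes did). The corrected difference of BIRC5 was 0.36 and that of PTTG1 -0.0042. Knockdown replicate 2, in which the set was lowest before and after correction, was also the library of lowest AHNAK (69.6 FPKM). It had the lowest summed keratinocyte markers (4486 FPKM) and the highest summed fibroblast markers (10.2 FPKM). Single markers differed from these sums: CDH1 was highest there (133 FPKM), COL1A1 was lowest there, and LAMB3 and ITGB4 were lowest in knockdown replicate 3. The part of AHNAK and of these markers in the result was not tested.

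Other genes of the division machinery, in lists that do not overlap with the 50, gave 0 calls at an adjusted p under 0.05 in limma. Unadjusted p under 0.05 was reached by 4 of 48 genes, all lower (against 5.48% of all genes), in the G1/S and DNA replication list and by no gene of the other 6 lists. In that list 29 of 48 members were below 0 (median -0.06, set A -0.07, set B -0.09). Over all genes 48.7% were below 0, the share to set beside the count of lower genes in each list. CCNE1, cyclin E1 of S phase entry, read 4.54 and 3.34 FPKM in the controls and 2.64, 2.57 and 2.07 FPKM in the knockdown libraries. CLSPN (claspin), a replication checkpoint adaptor, read 6.21 and 4.98 FPKM in the controls and 4.02, 3.67 and 3.59 FPKM in the knockdown libraries. In both genes every knockdown library was below both controls. Cohesin and the remaining condensin genes were lower in 10 of 13 (median -0.12), with NCAPH at -0.29 (SE 0.13) and STAG2 at -0.23 (SE 0.12). The other spindle and cytokinesis genes were lower in 14 of 19 (median -0.15), with CIT (citron kinase of the cleavage furrow) at -0.40 and KIF18B at -0.38.

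The remaining kinetochore and passenger genes were lower in 10 of 30 and higher in 20 (median 0.06), against 48.7% of all genes lower. Named in each list are the 2 genes of smallest unadjusted p, and here both went against most of the list. INCENP, the scaffold that holds AURKB and BIRC5, read 52.1 and 48.1 FPKM in the controls and 49, 33.4 and 22.9 FPKM in the knockdown libraries. KNL1, the platform for BUB1, had a log2 difference of -0.36 (SE 0.19). G2 checkpoint and entry regulators were lower in 5 of 12, with GTSE1 at -0.21 and PKMYT1, a kinase that inhibits CDK1, at -0.50. The anaphase-promoting complex core with its inhibitors was lower in 8 of 17, with ANAPC15 at 0.37 and ANAPC7 at 0.25. MuvB and DREAM subunits, which read the promoter element shown above, were lower in 3 of 10, with LIN52 at -0.23 and RBBP4 at 0.22. In set B all 13 cohesin and condensin genes, 27 of the 30 kinetochore genes and 17 of the 19 spindle genes were lower. So were 38 of the 48 G1/S and replication genes, 9 of the 12 G2 regulators, 9 of the 17 anaphase-promoting complex genes and 5 of the 10 MuvB and DREAM genes, against 49.9% of all genes.

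**Figure D5:**
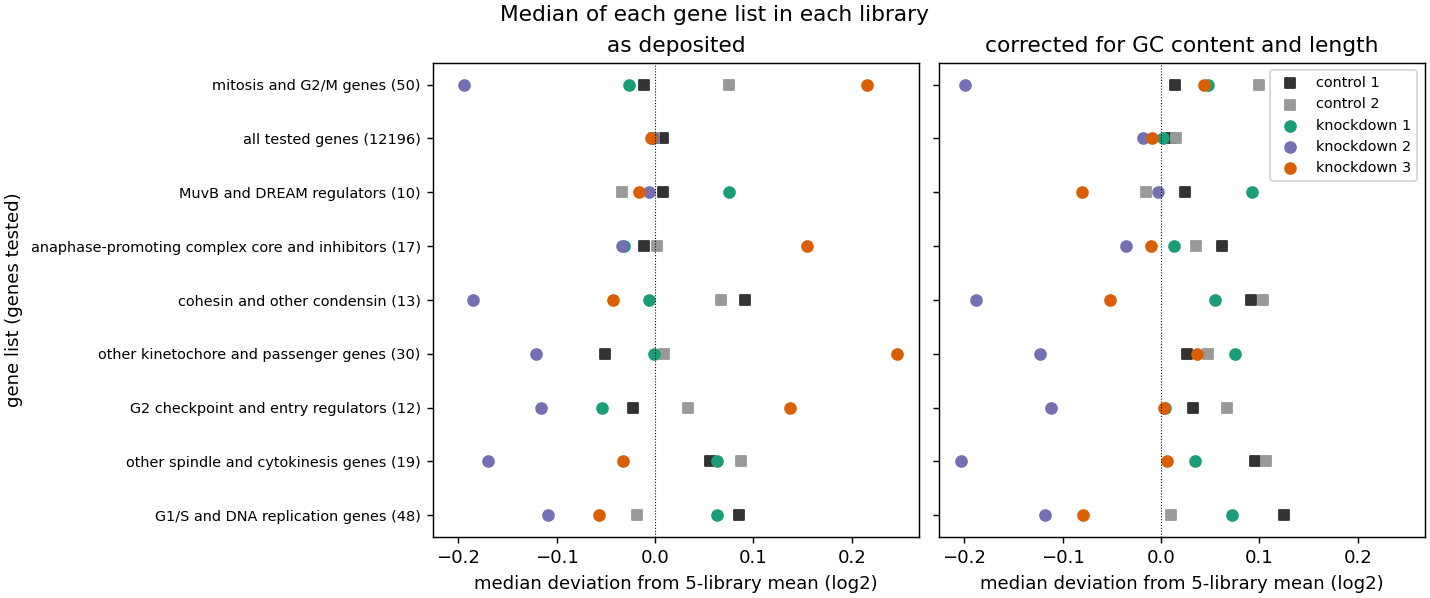
Median deviation of log2(FPKM + 0.5) from the 5-library mean (horizontal axis) for each gene list (vertical axis, genes tested in brackets) in each library, as deposited (left) and corrected for transcript GC and length (right); squares are controls, circles knockdown. Knockdown replicate 2 lies at -0.19 for the 50 members before and -0.20 after, whereas knockdown replicate 3 goes from 0.22 to 0.04.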

How the data were processed

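The authors deposited FPKM values in 1 table of gene symbols by libraries. HISAT2 2.0.1, StringTie 2.0.6 and the builds GRCh38 and mm9 are named in the submitters' processing notes without a role, and annotation and strand setting were not given in the sources used here. Tested were 12196 genes whose mean over the libraries reached 1 FPKM, as log2(FPKM + 0.5), which understates changes of low genes, with limma 3.58.1 in R 4.3.3 (lmFit, eBayes with a trend), knockdown against control, two-sided, with Benjamini-Hochberg adjustment over all of them and a threshold of 0.05. This step was first tested on simulated data. The simulation had independent noise for each gene, without GC trends or sets of libraries, and planted changes larger than those of the members. How the fit behaves with such trends or with smaller changes was not tested. Length and GC content came from the longest GENCODE 29 (GRCh38) transcript of each symbol (96.5% of tested genes matched), and each library was corrected for both by loess with a span of 0.3. Named in full were AHNAK, 14 well-known members, members whose groups did not overlap or with unadjusted p under 0.05, the 3 highest and lowest in mean and the 3 largest and smallest in range, and the 2 genes of smallest p of each other list; further members were named after their values were seen. The members and lists were chosen with earlier results of these data known.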

Additional observations from a re-analysis of the deposited data

How the results depend on the processing

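Across 18 refits and a threshold of 0.1, members past the threshold numbered 0 except with limma array weights, where 3 passed: MKI67 (-0.54), CDC20 (-0.46) and ANLN (-0.44). With those weights 1428 genes passed (11.7%, against 6% of the members). The weights were highest for knockdown replicate 2 (3.98), the library in which most members were lowest, and lowest for knockdown replicate 3 (0.257). Below 0 were then 47 members, while the share of all genes below 0 was not counted. Genes past the threshold were 1 with a pseudocount of 1, without a trend, with robust eBayes and at an adjusted p under 0.1. Leaving out 1 library in turn gave 0 to 9 genes (9 without control replicate 1) and 0 to 0 members past the threshold, 16 to 45 members below 0 and medians of -0.14 to 0.04. Genes at an unadjusted p under 0.05 were 2154 of 11768 with GC content and length corrected (18.3%), with 5 of 50 members (10%). With array weights they were 4285 of 12196 genes and 12 of 50 members. At a mean of at least 5 FPKM, where fewer genes were tested, they were 862 genes and 2 members. With a term for the sets they were 828 of 12196 genes and 0 members. With 1 library left out they were 564 to 2092 of 12196 genes and 0 to 5 members. Depth is unknown and limits what can be said of single genes. The correction with a set term was added after seeing the data.

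Whether the replicate numbers pair the libraries could not be told. Deviations from the group mean correlated over genes at -0.06 and -0.58 for numbers 1 and 2. With 2 controls these deviations mirror each other, so the values cannot decide it. By value steps, both libraries numbered 1 were in set A and both numbered 2 in set B. With the replicate block, knockdown replicate 3 stands alone and the fit rests on the other 4 libraries. There 0 genes passed, and 977 genes and 1 member had an unadjusted p under 0.05. Below 0 were 45 members (90%, against 50.7% of all genes), with a median of -0.14.

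Of 23 named members, 11 kept their sign in every refit. Signs turned in 65 of 414 values, 1 for each of the 23 members in each of the 18 refits, and the cause was not tested. In the order TOP2A, CCNB1, CDK1, AURKA, PTTG1, UBE2C, CDC25C and NUF2, log2 differences were -0.027, -0.099, -0.042, -0.024, -0.0042, -0.10, -0.051 and -0.10 with GC content and length corrected. They were -0.039, -0.11, -0.055, -0.040, -0.012, -0.12, -0.063 and -0.12 with a set term added to that. With array weights they were -0.10, -0.13, -0.12, -0.10, -0.082, -0.081, -0.10 and -0.17, and with the replicate block -0.082, -0.11, -0.18, -0.064, -0.19, -0.048, -0.063 and -0.29, where KIF2C was 0.0044. With an equal FPKM sum TOP2A, CCNB1, UBE2C, CDC25C and NUF2 were -0.046, -0.040, -0.0041, -0.014 and -0.012. TOP2A and CCNB1 were -0.034 and -0.037 with quantile normalization and -0.0045 and -0.0040 with the set term. With 1 library left out, ranges were -0.082 to 0.078 for TOP2A, -0.11 to 0.10 for CCNB1, -0.18 to 0.28 for CDK1, -0.064 to 0.17 for AURKA, -0.19 to 0.34 for PTTG1, -0.048 to 0.13 for UBE2C, -0.063 to 0.13 for CDC25C, -0.29 to 0.25 for NUF2, -0.055 to 0.024 for KIF2C, -0.14 to 0.039 for KIF20B, -0.14 to 0.043 for CCNA2 and -0.089 to 0.026 for BUB1.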
